A study of Mus musculus with 6 samples.

Results

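Genes of the Th17 lineage were followed in Th1-polarized mouse CD4+ T cells that had been cultured with or without ALX-5407, which blocks GlyT1, a membrane transporter that takes up glycine. They were 9 genes, chosen by name from the 54532 genes of the count table, namely the cytokines Il17a, Il17f, Il22 and Il21, the cytokine receptors Il23r, Il1r1 and Il6ra, and the transcription factors Rora and Ahr. CD4+ T cells from the spleens of male C57BL/6 mice, 6 to 8 weeks old according to the methods, were activated and polarized under Th1 conditions for 72 h, and 3 cultures received vehicle (0.1% DMSO) while 3 received 500 nM ALX-5407. The Th1 medium common to both groups held IL-2, IL-12, an antibody that blocks IL-4 and antibodies against CD3 and CD28, and no cytokine that directs Th17 differentiation was named for it. The design text gives an exposure of 72 h, whereas the methods give 24 h. The labels call the cultures biological replicates without saying whether each came from its own mouse, so p-values measure the spread between these cultures.

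Th17 cells are helper T cells that secrete IL-17A, IL-17F and IL-22 and defend epithelial barriers against extracellular bacteria and fungi. They arise when IL-6 or IL-21 acts through STAT3 together with TGF-β, which induces nuclear receptors of the ROR family, RORα (Rora) among them, and IL-1 and IL-23 then sustain the program through receptors made by Il1r1 and Il23r. AHR, a receptor for aromatic ligands, is needed for IL-22. IL-12 and T-bet (Tbx21) oppose this program, so Th17 genes are normally low in Th1 cells.

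For the 300 bases around the transcription start (250 before and 50 after, RefSeq on GRCm38.p6), sequences were found for 8 of the 9 genes (9 windows, with 2 for Il1r1), and none for Ahr. The motif AGGTCA, the half-site that ROR factors bind, was searched on both strands (TGACCT on the other strand). It was present in the windows of Il17a, Il17f and Il23r, that is in 3 of these 8 genes, and in 16.2% of all 32544 promoter windows of the same length. These 3 windows are shown with the window of Il21, which did not hold the half-site and whose transcript moved the other way. The half-site was also absent from the windows of Il22, Il1r1 and Rora, whose transcripts were lower. It was absent from that of Il6ra, whose transcript was slightly higher. Capitals mark this half-site and 2 further motifs that were searched. The AHR core GCGTG, also sought as its reverse complement, was in 32.6% of all windows. The AP-1 motif TGANTCA, read the same on both strands, was in 7.79% of all windows. No motif overlaps another in the 4 windows shown.
Il17a, chr1:20730655-20730954, + strand: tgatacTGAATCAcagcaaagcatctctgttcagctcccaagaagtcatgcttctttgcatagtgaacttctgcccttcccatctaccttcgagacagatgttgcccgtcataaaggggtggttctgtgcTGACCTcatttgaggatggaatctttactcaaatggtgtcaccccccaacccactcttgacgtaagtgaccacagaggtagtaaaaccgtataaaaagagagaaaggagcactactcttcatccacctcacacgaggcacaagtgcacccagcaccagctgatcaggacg
Il17f, chr1:20784221-20784520, - strand: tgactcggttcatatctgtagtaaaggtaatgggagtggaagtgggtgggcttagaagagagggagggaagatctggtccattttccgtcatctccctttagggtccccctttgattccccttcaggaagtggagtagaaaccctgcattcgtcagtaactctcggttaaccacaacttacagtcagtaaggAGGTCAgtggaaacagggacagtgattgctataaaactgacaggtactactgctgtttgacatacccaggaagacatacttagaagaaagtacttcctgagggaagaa
Il23r, chr6:67491806-67492105, - strand: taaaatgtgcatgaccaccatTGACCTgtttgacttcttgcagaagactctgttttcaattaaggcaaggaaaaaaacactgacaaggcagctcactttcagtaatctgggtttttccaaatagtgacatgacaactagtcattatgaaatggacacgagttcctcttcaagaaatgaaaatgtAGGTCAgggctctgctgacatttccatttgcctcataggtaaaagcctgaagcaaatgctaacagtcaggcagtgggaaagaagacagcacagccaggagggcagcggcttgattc
Il21, chr3:37232587-37232886, - strand: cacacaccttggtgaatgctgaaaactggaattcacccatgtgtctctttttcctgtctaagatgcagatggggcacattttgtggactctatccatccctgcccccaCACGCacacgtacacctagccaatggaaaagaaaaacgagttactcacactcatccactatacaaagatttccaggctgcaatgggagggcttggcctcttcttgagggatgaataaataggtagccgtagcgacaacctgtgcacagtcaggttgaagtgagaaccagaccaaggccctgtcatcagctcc
In the Il17a window TGACCT began 120 bases before the start site, and the AP-1 motif began 244 bases before it. The Il17f window held AGGTCA 58 bases before a start site that lies 6347 bases inside the gene's outer edge in the count file. Il23r had 2 copies, 229 and 66 bases before its start site. The GCGTG core was found for Il21, Il1r1, Il6ra and Rora, and the Il22 window held none of the 3 motifs. A match of letters is a description of the window and does not show that a factor binds there.

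All 6 libraries were of similar depth, from 30801753 to 36727788 counted reads, and library totals were scaled by TMM before reads were expressed as CPM, the read count relative to the scaled total. Of the genes in the table, 15938 passed the filter on low counts and were tested by edgeR's quasi-likelihood test, and 47.7% of them passed at an adjusted p of 0.05 (24.5% higher and 23.2% lower in ALX-5407-treated cells). Of the 9 Th17 lineage genes, 9 passed the filter, 7 were lower and 2 were higher at this threshold. Il17a, Il17f and Il1r1 passed the filter only because of their level in the Th1 libraries, so these counts and the median of the list are a description and support nothing further. With the further demand of an absolute log2 fold change over 1, which 10% of tested genes met (6.68% lower and 3.36% higher), 6 of the genes were lower and 0 higher. The median log2 fold change of the 9 genes was -1.31 against 0.005 over all genes tested. In each of the 9 genes the CPM ranges of the groups did not overlap, as was the case for 55.5% of all genes tested. With 3 cultures against 3, an exact permutation test of 1 gene cannot give a two-sided p below 0.1, so adjusted p-values come from the fit across all genes. In bulk libraries such as these, fewer cells of a type and less RNA per cell cannot be told apart.

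**Figure D1:**
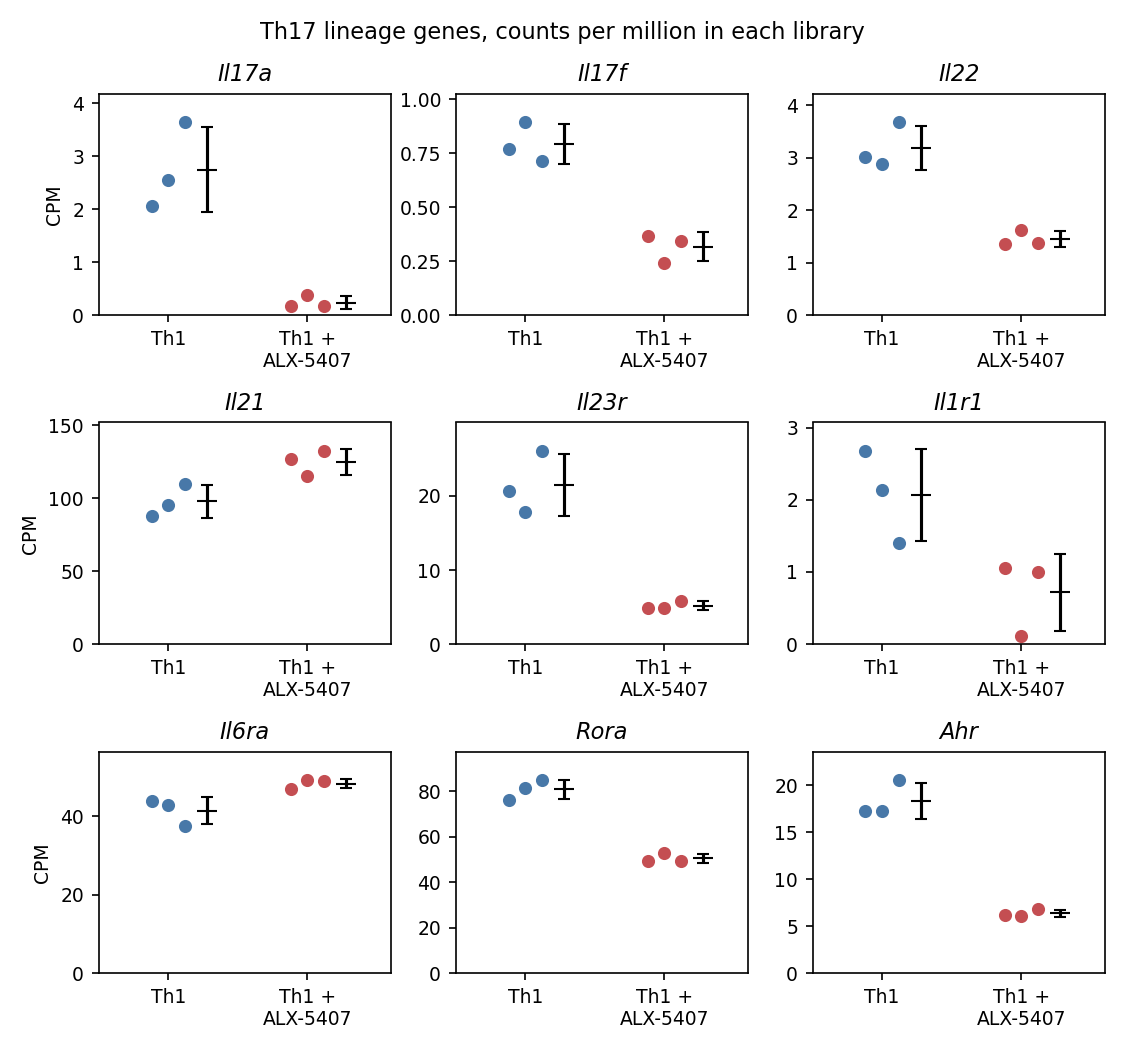
CPM (read count relative to the scaled library total, linear axes that start at 0) of each Th17 lineage gene, with 1 point for each of 3 Th1 and 3 ALX-5407-treated libraries, and the mean and SD beside them in black. Il17a, Il17f, Il22, Il23r, Il1r1, Rora and Ahr were lower in every treated library than in any Th1 library, and Il21 and Il6ra were higher.

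Il17a, which encodes the signature cytokine of Th17 cells, showed the largest change among the 9 genes. Its reads numbered 67, 80 and 112 in the Th1 libraries and 6, 14 and 6 in the ALX-5407-treated libraries. The treated libraries were all far below the Th1 libraries, and even the latter held few reads. The level went from 2.75 ± 0.808 to 0.239 ± 0.118 CPM (SD, n = 3 each), which is 11.5-fold lower, with a log2 change of -3.49 (SE 0.386, edgeR adjusted p = 1.91e-06). Of the tested genes, 0.282% had a larger absolute change. Il17a passed the filter only through Th1 cells and its change rests on few treated reads, so this rank is a description. The gene lies on chromosome 1 (20730905 to 20734496, + strand, GRCm38), and no annotated gene shares its exon bases, nor those of Il17f, Il22, Il23r or Il1r1.

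Il17f (chromosome 1, 20777146 to 20790617, - strand) lies 42.7 kb from Il17a and encodes the cytokine that forms dimers with IL-17A. It had 25, 28 and 22 reads in Th1 cells and 13, 9 and 12 with ALX-5407. The groups were separated by a smaller distance than for Il17a, at 0.791 ± 0.0914 against 0.317 ± 0.067 CPM (SD, n = 3 each). The fitted log2 change was -1.31 (SE 0.434, edgeR adjusted p = 0.0197), and the adjusted p rose to 0.0502 in DESeq2 and to between 0.0544 and 0.0819 when the first or second Th1 replicate or the second ALX-5407 replicate was left out. Per length, Il17a stood 4.63, 4.93 and 8.79 times as high as Il17f in the Th1 libraries, and 0.797, 2.69 and 0.863 times as high in the treated ones. These ratios did not overlap between groups (difference of mean log2 ratios -2.25, two-sided exact permutation p = 0.1, the smallest this design allows, and 0.125 after Benjamini-Hochberg adjustment over the 10 ratios compared). Both genes passed the filter only through Th1 cells. The treated ratios rest on 6 to 14 reads of Il17a and 9 to 13 of Il17f, so they are a description and support nothing further. Mcm3, the replication gene next to Il17f, was 0.92 higher on the log2 scale (edgeR adjusted p = 3.03e-08).

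Il22 encodes a cytokine that acts on epithelial cells, and it sits on chromosome 10 (118204942 to 118210047, + strand), 231 kb from Ifng. Its counts were 98, 90 and 113 in Th1 cells and 48, 61 and 48 in treated cells. The drop was steady across cultures, from 3.18 ± 0.428 to 1.45 ± 0.156 CPM (SD, n = 3 each), with a log2 change of -1.13 (SE 0.23, edgeR adjusted p = 0.000739). The close copy Iltifb, 79.6 kb away, held 1 read in all 6 libraries. Ifng, the cytokine that defines Th1 cells, was also lower, with a log2 change of -0.79 (SE 0.0967, edgeR adjusted p = 5.75e-06). The length-corrected ratio of Il22 to Ifng was 0.00504 to 0.00637 in Th1 libraries and 0.00396 to 0.00498 in treated libraries, narrowly apart (two-sided exact permutation p = 0.1).

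Il21 (chromosome 3, 37222759 to 37232636, - strand) behaved otherwise. This cytokine is made by Th17 cells, where it feeds back on STAT3, but also by follicular and other helper T cells, and it was the most abundant of the 9 genes per length. Its reads numbered 2872, 2985 and 3392 in Th1 cells and 4487, 4279 and 4647 with ALX-5407. Each treated library thus exceeded each Th1 library, by a modest margin. The level rose from 97.8 ± 11.2 to 125 ± 9.13 CPM (SD, n = 3 each), with a log2 change of 0.35 (SE 0.0869, edgeR adjusted p = 0.0033), and 51.0% of tested genes changed by more. Il2, 96.8 kb away on chromosome 3, rose too, from 1.34 ± 0.197 to 2.88 ± 0.203 CPM (SD, n = 3 each), with a log2 change of 1.10 (edgeR adjusted p = 0.00114). Per length, Il21 was 13.5 to 21.1 times as high as Il2 in Th1 libraries and 8.95 to 10 times in treated libraries (two-sided exact permutation p = 0.1). The antisense gene Gm12534, whose exons cover 8.92% of the exon bases of Il21, had no reads in any library. All 469 exon bases of that gene lie on Il21 exons and the use of strand is not given, so this 0 does not show that reads of the 2 genes were told apart.

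Among the receptors, Il23r (chromosome 6, 67422932 to 67491855, - strand) fell most in edgeR, and Il1r1 was level with it in limma-voom (log2 fold changes -2.03 and -2.03). It encodes the chain that is specific to the IL-23 receptor and pairs with the chain of Il12rb1, which the IL-12 receptor also uses. Counts were 671, 560 and 800 in Th1 cells and 173, 183 and 205 in treated cells. The treated libraries lay close together and far below the Th1 level, with 21.5 ± 4.13 against 5.21 ± 0.545 CPM (SD, n = 3 each) and 4.12-fold lower. The fitted log2 change was -2.04 (SE 0.146, edgeR adjusted p = 1.91e-08). Its partner Il12rb1 moved the opposite way, from 131 ± 10.4 to 243 ± 5.35 CPM (SD, n = 3 each), with a log2 change of 0.89 (edgeR adjusted p = 1.04e-07). Per length, Il23r was present at 0.245 to 0.304 of the Il12rb1 level in Th1 libraries. In treated libraries it was at 0.0324 to 0.0402 of that level (difference of mean log2 ratios -2.92). Every treated library was lower for Il23r and higher for Il12rb1, so the ratios had to separate and their separation adds no support. Il12rb2, which lies 46.7 kb from Il23r on chromosome 6 and encodes the IL-12-specific chain, had a log2 change of -0.007 (SE 0.0719, edgeR adjusted p = 0.949).

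Il1r1 (chromosome 1, 40225080 to 40317257, + strand) encodes the signalling receptor for IL-1, and its treated replicates were the most widely spread of the 9 genes. Its reads numbered 87, 67 and 43 in Th1 cells and 37, 4 and 35 with ALX-5407. The second treated library stood apart below the other two, whereas for Il17a the same library was the highest of the treated ones. The mean went from 2.07 ± 0.64 to 0.717 ± 0.529 CPM (SD, n = 3 each), with a log2 change of -1.53 (SE 0.487, edgeR adjusted p = 0.0158). Without that library the log2 fold change was -1.01 (edgeR adjusted p = 0.0265), and without the first Th1 library it was -1.31 with an edgeR adjusted p of 0.0932. Of the other genes of IL-1 signalling, the decoy receptor Il1r2, 99.8 kb upstream, fell by 0.53 on the log2 scale (edgeR adjusted p = 0.00291), and the receptor antagonist Il1rn rose by 1.11 (edgeR adjusted p = 0.00313). The accessory chain Il1rap had a log2 change of 0.29 (edgeR adjusted p = 0.111). Per length, Il1r1 stood at 0.411 to 0.805 of the Il1rap level in Th1 libraries and at 0.0281 to 0.26 in treated libraries. Every treated library was lower for Il1r1 and higher for Il1rap, so this separation adds no support. The ratio of Il1r2 to Il1r1 overlapped between groups (19.5 to 37.8 in Th1 and 31.9 to 336 in treated libraries, two-sided exact permutation p = 0.3). Further along the same cluster, Il1rl2 and Il1rl1, named after their values were seen, had log2 changes of -0.62 and -1.06.

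Il6ra (chromosome 3, 89864059 to 89913196, - strand), the ligand-binding chain of the IL-6 receptor, was slightly higher. It had 1433, 1344 and 1157 reads in Th1 cells and 1661, 1838 and 1719 in treated cells. The groups were 41.5 ± 3.42 and 48.4 ± 1.23 CPM (SD, n = 3 each), 1.17-fold apart, with a log2 change of 0.22 (SE 0.0818, edgeR adjusted p = 0.0332). This call was lost in 8 of 15 alternatives, among them DESeq2 (adjusted p = 0.0528) and the fits without Th1 replicate 2 or 3 or without any 1 of the ALX-5407 replicates (0.0516 to 0.141). Il6st, the gp130 chain through which IL-6 signals, rose from 49.4 ± 2.7 to 70.6 ± 3.16 CPM (SD, n = 3 each), with a log2 change of 0.52 (edgeR adjusted p = 3.62e-05). The ratio of Il6ra to Il6st per length was 0.918 to 1.19 in Th1 libraries and 0.863 to 0.9 in treated libraries. The antisense gene Gm42809 covers 2.8% of the exon bases of Il6ra and held 19 to 34 reads. Antisense genes also cover 0.627% of the exon bases of Rora and 2.06% of those of Ahr, with at most 21 and 10 reads in a library.

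The transcription factors Rora and Ahr both fell. Rora (chromosome 9, 68653786 to 69388246, + strand) encodes RORα, a nuclear receptor that acts at Th17 genes, and it had 2488, 2555 and 2610 reads in Th1 cells and 1735, 1974 and 1733 with ALX-5407. Its replicates lay closer together, relative to their mean, than those of any other lower gene of the 9, with 80.8 ± 4.22 against 50.5 ± 2.1 CPM (SD, n = 3 each) and a log2 change of -0.68 (SE 0.0746, edgeR adjusted p = 1.79e-06).

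Ahr (chromosome 12, 35497974 to 35535038, - strand) had 559, 541 and 631 reads in Th1 cells and 220, 227 and 238 in treated cells. The treated values were close to each other, and the mean went from 18.3 ± 1.9 to 6.36 ± 0.371 CPM (SD, n = 3 each), 2.88-fold lower, with a log2 change of -1.52 (SE 0.122, edgeR adjusted p = 7.14e-08). Its DNA-binding partner Arnt fell by 0.69 on the log2 scale (edgeR adjusted p = 1.25e-06), and the ratio of Ahr to Arnt per length went from 0.149 to 0.203 in Th1 libraries to 0.0898 to 0.0979 in treated libraries (two-sided exact permutation p = 0.1). Of the AHR axis as a whole, 8 of 11 listed genes were tested, of which 4 were lower, 2 higher and 2 did not pass. Over all genes tested, 23.2% were lower and 24.5% higher. Ahrr and Cyp1a1 passed the filter on low counts only through their level in Th1 cells. Arnt2 passed it only through its level in treated cells, so these counts are a description. The AHR target and repressor Ahrr was lower (log2 fold change -1.63, edgeR adjusted p = 0.00788, and 0.0512 without the second Th1 replicate), as was the target Tiparp (-0.40, edgeR adjusted p = 0.00585). Cyp1a1, the classical target, had 19, 27 and 30 reads in Th1 cells and 18, 6 and 16 in treated cells (log2 fold change -1.10, edgeR adjusted p = 0.0688, and 0.0492 in limma-voom). Arnt2, a low relative of Arnt, and Asb2 rose by 1.51 and 0.88 on the log2 scale (edgeR adjusted p = 0.0044 and 2.95e-06).

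**Figure D2:**
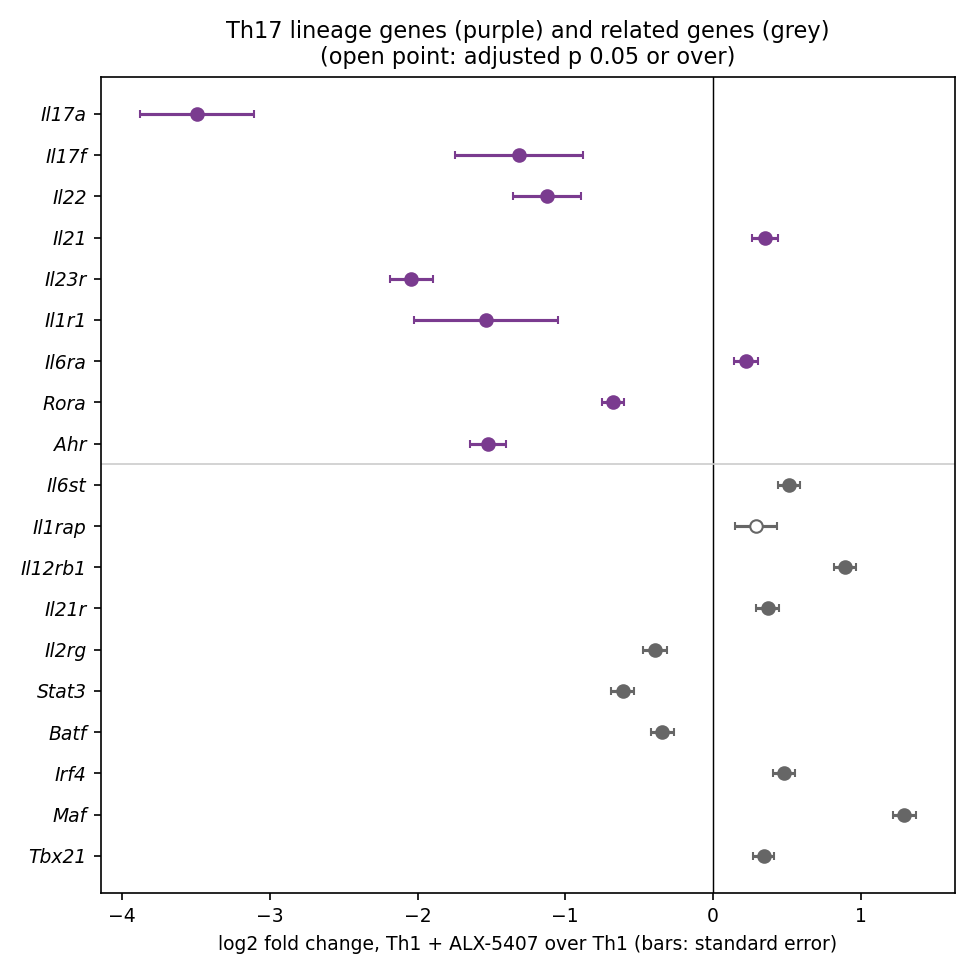
Log2 fold change of ALX-5407-treated over vehicle-treated Th1 cells with its SE, from edgeR on 3 libraries against 3. Shown are the 9 Th17 lineage genes (purple) and 10 related genes (grey). Il17a is farthest to the left at -3.49, while the partner chains Il12rb1 and Il6st and the factors Irf4, Maf and Tbx21 lie to the right of 0.

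Compared per length, the order of the genes also differed between the conditions. In Th1 cells it ran from Il21 at 18.6 CPM per kilobase, over Il23r (8.63), Rora (6.18), Il6ra (4.8), Ahr (2.97), Il22 (2.87) and Il17a (2.35), to Il17f (0.391) and Il1r1 (0.325). Ahr and Il22, Il22 and Il17a, and Il17f and Il1r1 overlapped in their ranges over 3 libraries and cannot be ordered. In treated cells Il21 remained highest at 23.7 CPM per kilobase, and it was followed by Il6ra (5.6), Rora (3.86), Il23r (2.1), Il22 (1.31), Ahr (1.03), Il17a (0.204), Il17f (0.157) and Il1r1 (0.113), with overlap among the last 3. In treated cells the coefficient of variation was 73.7% for Il1r1, 49.5% for Il17a and 21.1% for Il17f, against 2.53% for Il6ra and 4.17% for Rora. In Th1 cells it was 30.9% for Il1r1, 29.4% for Il17a and 19.3% for Il23r, and Il17f, with the fewest reads there, had 11.6%.

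**Figure D3:**
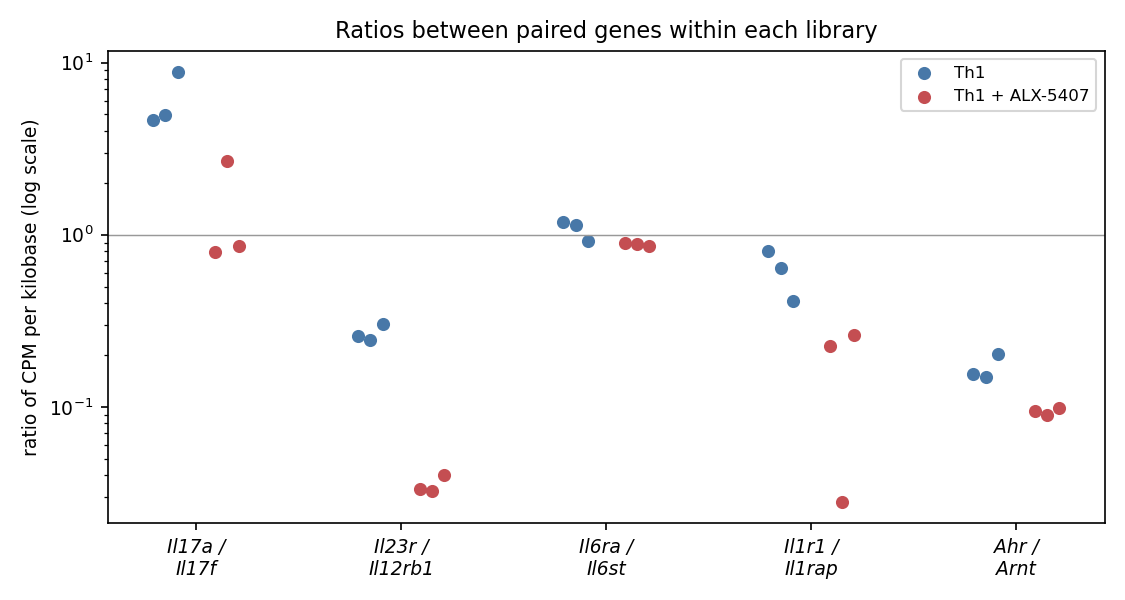
Ratio of length-corrected CPM (log axis) between a Th17 lineage gene and a related gene within each of 3 Th1 and 3 ALX-5407-treated libraries. Il17a over Il17f, Il23r over Il12rb1, Il6ra over Il6st, Il1r1 over Il1rap and Ahr over Arnt are lower in the treated libraries without overlap. Il23r over Il12rb1 is at 0.245 to 0.304 in Th1 and 0.0324 to 0.0402 in treated libraries. For Il6ra over Il6st the gap is narrow (lowest Th1 ratio 0.918, highest treated ratio 0.9). Not all of the 10 ratios compared are shown and not all separated, for example Il1r2 over Il1r1 overlapped.

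To place the 9 genes in their pathway, 79 further genes were grouped by role. Of these, 65 were tested, and 24 were higher and 20 lower, against 24.5% and 23.2% of all genes tested. Together that is 44 of 65 against 47.7%, and their median log2 fold change was 0.032. Some of the 65 passed the filter on low counts only through 1 group, so these counts are a description. Among 12 transcription factors of the Th17 program, 5 were higher, 6 lower and 1 did not pass. Stat3, the factor activated by IL-6, IL-21 and IL-23, was at 928 ± 87.5 CPM in Th1 cells and 607 ± 32.1 CPM in treated cells (SD, n = 3 each), with a log2 change of -0.61 (edgeR adjusted p = 1.06e-05). Batf, a pioneer factor of Th17 genes, fell by 0.34 and Bhlhe40 by 0.54, whereas Irf4, the partner of Batf, rose by 0.48 (edgeR adjusted p = 0.00133, 7.7e-05 and 7.43e-05). Maf rose most, from 50.1 ± 4.43 to 123 ± 2.4 CPM (SD, n = 3 each), with a log2 change of 1.30 (edgeR adjusted p = 3.21e-09). This factor drives Il21 and Il10 in several helper subsets. Junb, Ikzf1 and Ikzf3 had log2 changes of 0.48, 0.43 and 0.40. The falls of Hif1a (-0.20) and Nfkbiz (-0.21) were small, and their calls were lost in 3 and 7 of 15 alternatives.

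Regulators that oppose Th17 differentiation were mixed, with 6 of 14 higher and 4 lower (24.5% and 23.2% of all genes tested). T-bet (Tbx21) rose by 0.34 on the log2 scale (edgeR adjusted p = 0.000941), Gfi1 by 0.39 and Egr2 by 0.68. Foxp3, the defining factor of regulatory T cells, had 483, 409 and 324 reads in Th1 cells and 833, 709 and 735 in treated cells, a log2 change of 0.73 (edgeR adjusted p = 0.000204). Fosl2, Bcl6, Etv6 and Stat5b were lower, from -0.85 for Fosl2 to -0.23 for Stat5b. The call of Bcl6 was lost without the first ALX-5407 replicate (edgeR adjusted p = 0.0546), as was that of Stat5b (0.0646), and that of Nr1d1 (log2 fold change 0.91) without the second ALX-5407 replicate (0.0639).

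Receptor chains and kinases for the Th17-inducing cytokines were listed together with decoys and the receptor antagonist Il1rn. Of these 14 genes, 8 were higher and 2 lower, against 24.5% and 23.2% of all genes tested. Their median log2 fold change was 0.27. Il1rn was among the higher genes and the decoy Il1r2 among the lower ones, so the counts mix signalling and inhibiting genes. The TGF-β receptor genes Tgfbr1 and Tgfbr2 rose by 0.79 and 0.70 on the log2 scale (edgeR adjusted p = 2.74e-05 and 1.17e-06). Il21r, the receptor for the Il21 product, rose by 0.37 (edgeR adjusted p = 0.000931), but its shared chain Il2rg fell by 0.39 (edgeR adjusted p = 0.00071). The kinase genes Jak1 and Tyk2 were 0.24 and 0.20 higher, and the call of Tyk2 was lost in 9 of 15 alternatives.

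Of 12 effector and surface genes that accompany IL-17 in Th17 cells, 9 were tested. Among these, 4 were lower, 1 was higher and 4 did not pass, against 23.2% lower and 24.5% higher over all genes tested. Their median log2 fold change was -1.08. Ccr6 and Csf2 passed the filter on low counts only through their level in Th1 cells, and Ccl20 only through its level in treated cells, so the count and the median are a description. Ccr6, the chemokine receptor that marks Th17 cells, had 125, 97 and 98 reads in Th1 cells and 8, 10 and 19 in treated cells, a log2 change of -3.28 (SE 0.33, edgeR adjusted p = 6.92e-07). Its ligand Ccl20 went up from 10, 16 and 6 reads to 27, 38 and 56 (log2 fold change 1.73, edgeR adjusted p = 0.00526). Zbtb16, Serpinb1a and Gpr65 fell by 1.71, 1.22 and 1.08 on the log2 scale. Csf2, the GM-CSF gene, had 37, 15 and 22 reads in Th1 cells and 11, 18 and 8 in treated cells (log2 fold change -1.18, edgeR adjusted p = 0.0539), and it passed in 4 of 14 alternatives.

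Of the other IL-17 family cytokines and the receptors for IL-17 and IL-22, 3 of 10 genes were tested. Il17ra, the receptor chain that T cells and most other cells carry, rose by 0.19 on the log2 scale (edgeR adjusted p = 0.0315) and Il17d by 1.44, from 4 to 6 reads per Th1 library to 12 to 19 per treated library, and both calls were lost with any 1 library left out. Il17d passed the filter on low counts only through its level in treated cells. Il17b, Il25, Il22ra1 and Il22ra2 had no reads in any library. In a separate list of 6 ROR and clock genes, Rorb was not tested. The 5 tested were Nr1d2, Arntl, Clock, Npas2 and Bhlhe41, none of them a ROR gene. Of these, 0 passed in edgeR, DESeq2 or limma-voom, and 0 had an unadjusted p under 0.05 in edgeR. Rora and Nr1d1, counted above in other groups, did pass in edgeR. Over all genes tested, 47.7% passed in edgeR.

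**Figure D4:**
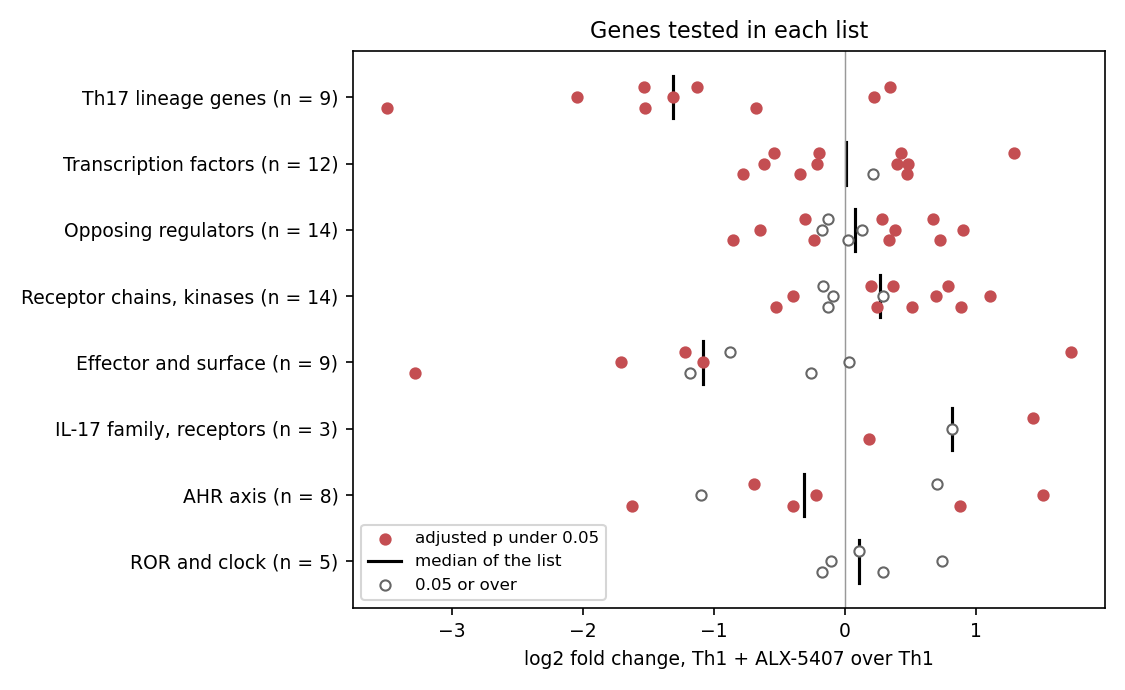
Log2 fold changes of the tested genes in each list (horizontal axis, ALX-5407-treated over vehicle-treated Th1 cells). Filled points mark an adjusted p under 0.05 from edgeR, and a bar marks the list's median. The 9 Th17 lineage genes and the effector and surface genes have medians of -1.31 and -1.08, and the other lists have medians between -0.31 and 0.82.

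Markers of other cell types were set beside these genes. Their counts of higher and lower genes stand against 24.5% and 23.2% of all genes tested. The T cell genes Cd3d, Cd3e, Cd3g, Cd4, Trac, Cd28, Cd5 and Lck summed to 2830 to 2980 CPM in Th1 and 2860 to 2910 CPM in treated libraries, with 2 of 8 higher and 3 lower, among them Cd4 by 0.46 on the log2 scale. The 6 γδ T cell markers, which belong to cells that can also make IL-17, summed to 12.9 to 16.3 CPM in Th1 and 13.7 to 16 CPM in treated libraries. Of these, 1 of 6 was higher (Trdc, 0.60 on the log2 scale, edgeR adjusted p = 0.0206, and up to 0.0892 with 1 library left out) and 0 lower. The log2 fold change was above 0 for 2 of the 6 and below 0 for 4, with a median of -0.20. The list of innate lymphoid and NK markers summed to 183 to 217 CPM in Th1 and 125 to 139 CPM in treated libraries, nearly all of it from Il18r1 and Klrk1, which activated T cells also express, while the defining marker Ncr1 had 0 to 4 reads. The 5 B cell markers summed to 7.6 to 8.84 CPM in Th1 and 11.4 to 14.4 CPM in treated libraries, with 3 of 5 higher and none at 0 in a group, although the call of Cd79a, 1 of these 3, was lost in 11 of 15 alternatives (adjusted p up to 0.214). The 6 myeloid markers summed to 15.5 to 21.1 CPM in Th1 and 5.35 to 6.7 CPM in treated libraries. Nearly all of this sum was Cd68 (14.7 to 20.7 and 5.04 to 5.64 CPM), which fell by 1.75 on the log2 scale. The other 5 were too low to be tested, and the defining markers Lyz2, Csf1r and Adgre1 had 0 to 15 reads in any library. Of the 3 regulatory T cell markers, 3 were higher and their sum went from 1950 to 2550 CPM in Th1 to 2980 to 3200 CPM in treated libraries. Nearly all of this sum was Il2ra (1910 to 2510 and 2920 to 3140 CPM), the gene of CD25, which the paper used as an activation marker. Foxp3 was at 10.5 to 14.8 CPM in Th1 and 19 to 23.6 CPM in treated libraries, and Ikzf2 at 27.8 to 32.7 and 36.3 to 43.2 CPM. The 2 CD8 genes summed to 9.24 to 9.58 CPM in Th1 and 6.71 to 8.86 CPM in treated libraries, and the dendritic cell markers to 4.05 to 4.87 and 2.99 to 3.72 CPM. The part of these cell types in the changes of the Th17 lineage genes was not tested.

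**Figure D5:**
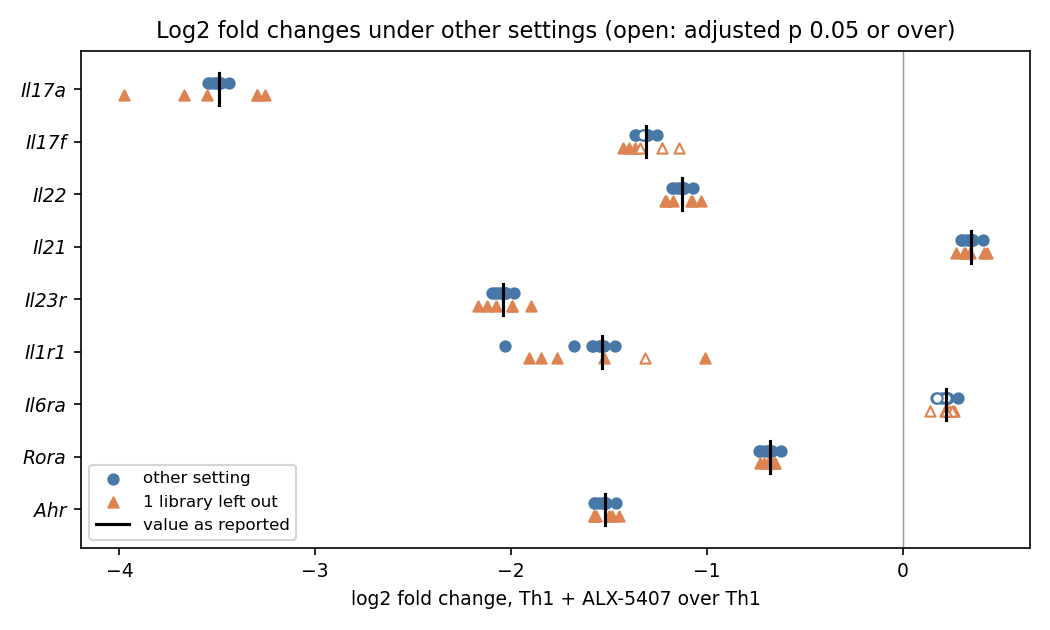
Log2 fold change of each Th17 lineage gene as reported (black bar), under other normalizations, filters, tests and a replicate block (circles), and with 1 library left out (triangles), with open symbols for an adjusted p of 0.05 or over. Il23r, Il22, Il17a, Il21, Rora and Ahr are filled throughout, and Il17f, Il1r1 and Il6ra have open symbols.

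By their course over the 6 libraries, the genes nearest to a Th17 lineage gene, among 12116 genes with a mean of at least 50 counts, were Xlr3b, Dctn4 and Mat2b for Il23r (Pearson's r of log2 CPM 0.9987 to 0.9981) and Samhd1 and Serpinb5 for Ahr (0.9993 and 0.9987). In all, 954 genes had an r over 0.95 with Il23r and 1103 with Ahr, over 6 libraries that fall into separate groups. Nearest to Rora were Akr1b8, Ppp3r1 and Brd8, for Il22 Cox7a2l, Gm12174 and Thap12, for Il21 Gm45222, Etfrf1 and Mtf2, and for Il6ra Pnpla2, Eaf1 and Cyb5r3. Il17a, Il17f and Il1r1 were below the minimum of 50 counts.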

How the data were processed

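Raw read counts per gene, neither normalized nor pooled, were deposited for 6 libraries, with GRCm38 (mm10) coordinates and gene lengths. Per the submitters' processing notes, fastp, HISAT2 2.0.5, featureCounts 1.5.0-p3 and mm10 were used. The use of strand and the handling of multi-mapping reads are not given in the sources used here. The labels describe poly(A) capture, the methods ribosomal RNA depletion.

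Counts were analysed with edgeR 4.0.16 in R 4.3.3 (filterByExpr with a minimum count of 10 and a minimum total of 15, TMM, quasi-likelihood F test, two-sided, Benjamini-Hochberg adjustment over 15938 genes). Standard errors came from the fold change and the root of F. CPM used TMM-scaled total counts, and levels between genes were divided by the deposited gene length. Ratios were compared by exact permutation tests. The members and lists were chosen with earlier results of these data known. Named genes are the 9 members, called genes of the lists, fixed partners and, for each member with at least 50 counts on average, the 3 genes with the highest Pearson's r of log2(CPM + 0.1). Alternatives were DESeq2 1.42.0, limma-voom (limma 3.58.1), other scalings and filters, protein-coding genes alone, a replicate block and each library left out. A few genes that this rule names are not reported here. Cyp1a1, Csf2 and neighbouring genes on the chromosome were chosen after their values were seen. On simulated counts for this comparison (15938 genes), 160 of 190 changed genes were called, with 17 unchanged ones. A far smaller share of genes was changed there than was called in the data (47.7% of genes tested). The simulation thus does not give the error rate of these calls. All 9 members had the same start and end in GENCODE M21. Within each group, libraries varied beyond counting error (chi-square per degree of freedom 5.6 to 22.3). Depth was 30801753 to 36727788 counts per library, so that genes under 50 counts carry wide errors.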

Additional observations from a re-analysis of the deposited data

How the results depend on the processing

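Il17a, Il22, Il21, Il23r, Rora and Ahr kept their direction and their call in every alternative that was run. With 1 library left out, log2 fold changes ranged from -3.98 to -3.26 for Il17a, from -1.22 to -1.03 for Il22, from -2.17 to -1.90 for Il23r, from -0.73 to -0.65 for Rora, from -1.58 to -1.45 for Ahr and from 0.27 to 0.43 for Il21. For Il17f they ranged from -1.43 to -1.14 (adjusted p from 0.0334 to 0.0819), for Il1r1 from -1.91 to -1.01 (0.0082 to 0.0932) and for Il6ra from 0.14 to 0.26 (0.0382 to 0.141), and no sign changed. Il17f also lost its call in DESeq2 (-1.33, adjusted p = 0.0502), and Il6ra lost it in DESeq2 (0.22, adjusted p = 0.0528), with upper quartile scaling (0.17, adjusted p = 0.0967) and among protein-coding genes alone (0.18, adjusted p = 0.0756). The number of the 9 genes called higher thus went from 2 to 1 in these 3 settings, and it was 1 to 2 with 1 library left out. The cause was not tested.

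Restricted to genes with a mean of at least 50 counts, which leaves out Il17a, Il17f and Il1r1, 4 of the remaining 6 genes were lower, 3 of them past the fold threshold, and over all genes 282 higher and 594 lower genes passed that threshold in place of 536 and 1064. Among protein-coding genes alone the lower ones numbered 603. Fewer genes enter these fits by construction. Of the 44 called pathway genes, 34 kept their call in every alternative. Libraries with the same replicate number did not deviate together (correlations of -0.0084, 0.00355 and 0.0635). With 3 libraries in a group, this cannot show whether they shared a mouse or a batch. A fit with the replicate block changed no call of the 9 genes, for example -1.32 for Il17f and 0.23 for Il6ra. At 6 to 14 reads per treated library for Il17a and 4 to 37 for Il1r1, the size of their changes is poorly bounded by these counts.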
